A study of Mus musculus with 6 samples.

Results

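The nuclear genes that encode subunits of the mitochondrial respiratory chain and ATP synthase were followed in mouse tibial cartilage. They are the genes whose current symbol starts with Nduf, with Sdha to Sdhd, with Uqcr, with Cox4 to Cox8 or with Atp5. Assembly factors, pseudogenes and Ndufa4l2 were left out. The rule gave 87 genes. Of these, 84 had 113 probes on the array and 83 passed the filter on dim probes, out of 25494 features tested and 55681 probes in all. Ndufb1, Ndufb4b and Ndufb4c had no matched probe, and Cox7b2, a testis form, did not pass. Its probe was well above background on 0 of 3 control arrays and 2 of 3 mutant arrays. The 83 tested genes comprised 36 of complex I, 4 of complex II, 8 of complex III, 18 of complex IV and 17 of complex V, the ATP synthase. Each was represented by its brightest probe. For 22 genes with several probes the differences spread by a median of 0.04, and for 7 of them the probes differed in sign. All 83 were well above background on all 6 arrays, and no level is set against that of another probe.

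Complexes I and II pass electrons from NADH and succinate to ubiquinone, complex III hands them to cytochrome c, and complex IV, cytochrome c oxidase, transfers them to oxygen. Complexes I, III and IV pump protons, and complex V uses the proton gradient to make ATP. Several small subunits of complex IV exist as a ubiquitous form and a form made mainly in heart and skeletal muscle, while cartilage, with no blood vessels, is known for a strong reliance on glycolysis.

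The arrays measured total RNA from 3 control mice and 3 mice with the genotype ADAM10 flox/flox-Col2a1-Cre, all of strain C57BL/6, and the latter are called mutants. Cre recombinase was driven by the Col2a1 promoter, which is active in chondrocytes, and acts on floxed alleles of Adam10, the gene of a membrane protease that sheds cell surface proteins. The age of the mice, the alleles that the controls carry and the exon that is floxed were not stated in the sources at hand. The comparison asks which transcripts differ in cartilage between these genotypes. Values are log2 signals relative to the 75th percentile of the array, and a difference is the mutant mean minus the control mean. Values of single arrays stand in the order of the mice numbered 1 to 3 in each group.

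Adam10 read 1.61, 1.58 and 1.21 on the control arrays and 0.15, -1.70 and 0.31 on the mutant arrays, so the groups did not overlap. Its difference was -1.88 (SE 0.53), with a limma adjusted p of 0.987. In the limma fit 0 of 25494 features passed an adjusted p of 0.05 (0%), and 875 (3.43%) had an unadjusted p below 0.05. Against the labelled tissue, 15 of 15 chondrocyte markers were well above background on all 6 arrays, Col2a1 among them. The share of spots well above background was 62.4% to 65.4% over the arrays. Control 1 and mutant 3 carried more Xist than Ddx3y signal and the other 4 arrays the reverse, so both groups held both patterns. The first slide row held the controls and mutant 1, and the second row held mutants 2 and 3.

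No respiratory chain subunit passed the test. Of the 83 tested subunits, 0 passed an adjusted p of 0.05 and 0 had an unadjusted p below 0.05, beside 3.43% of all features (1.88% lower and 1.55% higher in mutants), and the smallest unadjusted p was 0.103 (Cox5a, limma adjusted p 0.987). The differences were small: their median was -0.04, with quartiles at -0.09 and 0.01, where the median of all features was 0.04. The difference was below 0 for 60 of 83 subunits (72.3%), against 40% of all features. These genes share the same 6 arrays and are not independent of each other. Averaged over the 77 members that are not tissue forms, the level relative to each gene's own mean was 0.01, 0.02 and 0.02 for the controls and -0.07, 0.04 and -0.03 for the mutants. Mutant 2 was above every control on this average and the groups overlapped.

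The precision for these genes was better than for the typical feature. The median standard error of a difference was 0.117 for the subunits and 0.17 for all features, and the median distance between the highest and the lowest of the 6 arrays was 0.24 and 0.57. For all 77 members that are not tissue forms the 95% interval of the difference stayed within 1 log2 unit of 0, and for 71 of them within 0.5. Ndufv2, a core subunit of complex I, was the steadiest, at 4.35, 4.37 and 4.35 on the control arrays and 4.34, 4.35 and 4.32 on the mutant arrays. A p that misses the threshold does not show that these transcripts were equal, and the intervals give the bounds.

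In 11 of 83 subunits (13.3%) every mutant read below every control, and in 0 every mutant read above. Over all features, groups did not overlap in 8.94%, with 3.75% lower and 5.19% higher in mutants. The 11 genes were Ndufa12 of complex I, Sdhb of complex II, Cox5a, Cox5b and Cox7b of complex IV, and Atp5a1, Atp5b, Atp5g3, Atp5pb, Atp5h and Atp5mpl of complex V. None of their differences went beyond -0.22. With quantile scaling the count of separated subunits was 19 lower and 0 higher, beside 4.14% and 5.39% of all features. With normexp background correction and percentile scaling it was 8 and 0 (3.9% and 4.37% of all features), with normexp and quantile scaling 17 and 1 (4.31% and 5.46%), and from the deposited table of ratios it was 15 and 0 (3.94% and 4.73%). The number of subunits below 0 also moved with the setting. It was 74 of 83 under quantile scaling, where 42.9% of all features were below 0 and the members' median difference was -0.10, 55 with normexp and percentile scaling (44% of all features), and 49 without mutant 1 (37.1%).

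**Figure D1:**
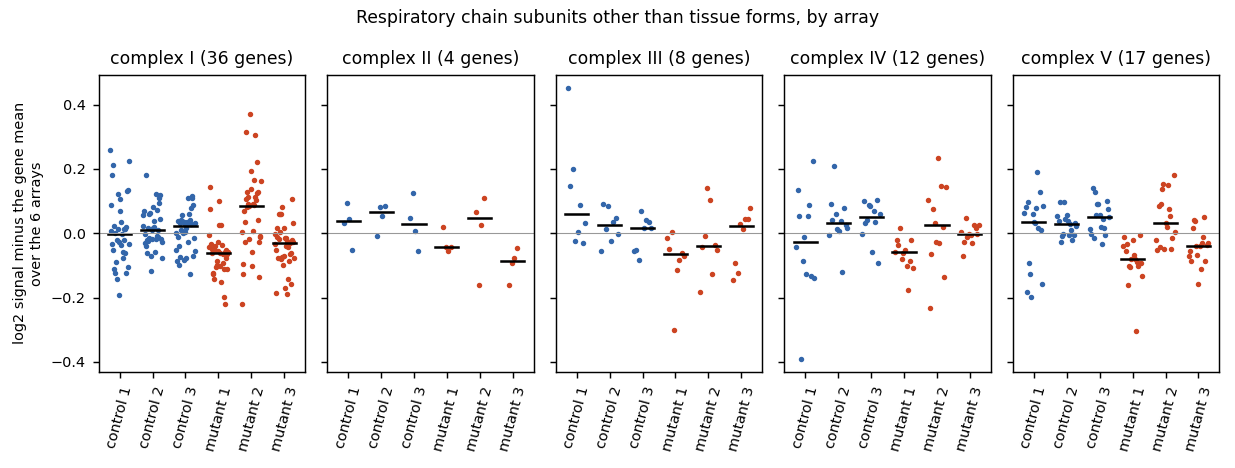
Log2 signal of the 77 members that are not tissue forms on each array, minus the gene's mean over the 6 arrays (vertical axis), by complex; dots are genes, bars the median of the complex, blue controls and red mutants. These medians overlap between the 2 groups in all 5 complexes, while the means of complexes II and III do not overlap, and mutant 2 is the highest array in complex I.

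The widest differences between arrays among the 83 belonged to the muscle forms of complex IV. Cox6a2, the heart and muscle form of subunit 6a, read 5.08, 1.29 and 1.31 on the control arrays and 3.57, 0.02 and 3.01 on the mutant arrays. Cox7a1, the muscle form of subunit 7a, read 3.86, 0.78 and 0.51 on the control arrays and 2.64, -0.55 and 2.25 on the mutant arrays. Cox8b, the muscle form of subunit 8, read 4.34, 0.57 and 0.44 on the control arrays and 2.87, -0.61 and 2.41 on the mutant arrays. In all 3 genes control 1 was highest and mutant 2 lowest, mutants 1 and 3 lay between, and both groups held high and low arrays. Control 1 exceeded mutant 2 by 33.2-fold for Cox6a2, 21.3-fold for Cox7a1 and 30.9-fold for Cox8b, ranges at the 99.8, 99.5 and 99.8 percentile of all features.

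Between genotypes these genes did not separate. The difference was -0.36 (SE 1.32, 95% interval -3.55 to 2.83) for Cox6a2, -0.27 (SE 1.17) for Cox7a1 and -0.23 (SE 1.33) for Cox8b, and the limma adjusted p of Cox6a2 was 0.989. The sign depended on single arrays. Without control 1 the differences were 0.90, 0.80 and 1.05, without mutant 2 they were 0.73, 0.73 and 0.85, and without both they were 1.99, 1.80 and 2.13. Since these arrays were the highest control and the lowest mutant for the same 3 genes, leaving them out raises the difference by construction, and no p is given for it.

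The ubiquitous partners were far steadier. Cox6a1 read 7.74, 8.34 and 8.17 on the control arrays and 8.14, 8.20 and 8.18 on the mutant arrays, and only control 1 stood apart, at the low side. Cox7a2 read 4.88, 5.01 and 4.95 on the control arrays and 4.95, 5.24 and 5.0 on the mutant arrays. Cox8a read 6.74, 6.96 and 6.98 on the control arrays and 6.79, 6.90 and 6.89 on the mutant arrays. The muscle form minus its partner differed between genotypes by -0.45 for Cox6a2 and Cox6a1, -0.39 for Cox7a1 and Cox7a2 and -0.20 for Cox8b and Cox8a. The exact permutation p-values, two-sided, were 0.8, 1 and 1 over 3 arrays a group, where 0.1 is the smallest possible, and 5 pairs were compared.

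**Figure D2:**
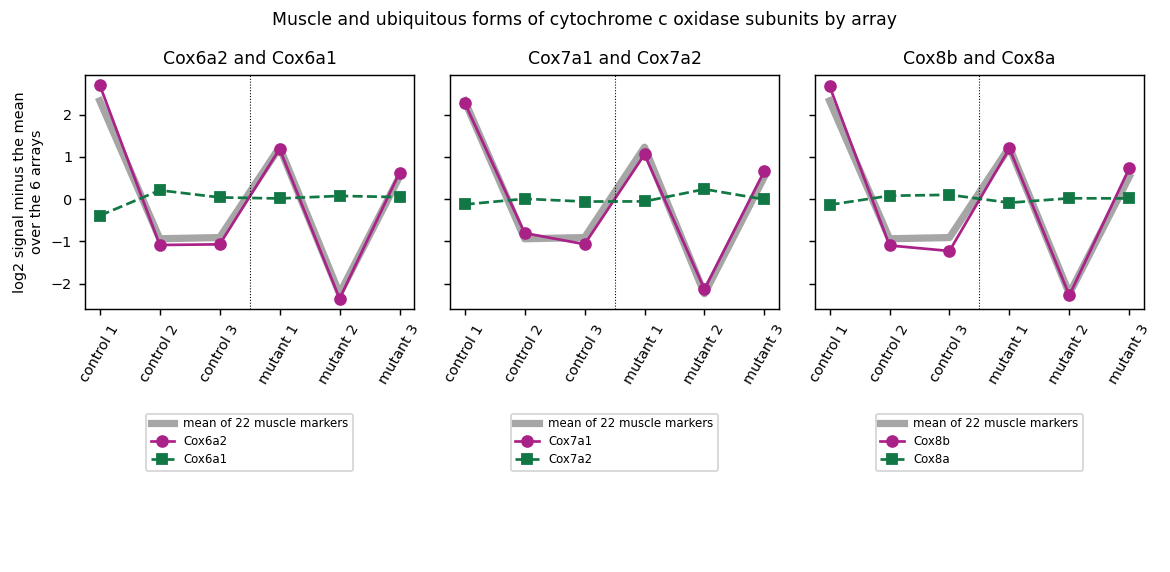
Log2 signal minus its mean over the 6 arrays for each muscle form (circles) and its ubiquitous partner (squares) of complex IV, with the mean of 22 skeletal muscle markers in grey; each muscle form follows the grey line, with control 1 highest and mutant 2 lowest, while its partner stays near 0.

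Skeletal muscle markers moved across the arrays with these 3 subunits. All 22 markers on the list were tested, 21 of them well above background on all 6 arrays, and their mean level relative to each gene's own mean was 2.33, -0.94 and -0.91 for the controls and 1.23, -2.24 and 0.53 for the mutants. The highest array was control 1 and the lowest was mutant 2, as for the subunits. Control 1 was highest and mutant 2 lowest together in 3 of 3 muscle forms, in 18 of 22 markers and in 9 of 77 other members (11.7%), beside 6.17% of all features. The 9 were Ndufv1, Ndufs1, Ndufb7, Uqcrc1, Uqcrq, Cox5a, Cox5b, Ndufa4 and Atp5d, and in 33 of the 77 mutant 2 was instead the highest array. With the muscle marker level subtracted on each array, the distance between the highest and lowest array dropped from 5.05 to 0.53 for Cox6a2, from 4.41 to 0.31 for Cox7a1 and from 4.95 to 0.66 for Cox8b. The differences between genotypes were then -0.04, 0.05 and 0.09, with exact permutation p-values of 1, 0.9 and 0.8. In bulk tissue fewer cells of a type and less RNA per cell cannot be told apart.

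The promoters of the muscle forms Cox7a1 and Cox8b and of the ubiquitous form Cox6a1 are shown because these members differ in what their upstream sequence holds. Cox6a2 had no window in the table used. The 250 bases before the RefSeq transcription start (build GRCm38.p6) are given in the 5′ to 3′ direction of the gene, for Cox7a1 on the plus strand at chr7:30183921-30184170, for Cox8b on the minus strand at chr7:140900447-140900696 and for Cox6a1 on the minus strand at chr5:115348959-115349208. Capitals mark matches to the motifs listed after the sequences.
Cox7a1: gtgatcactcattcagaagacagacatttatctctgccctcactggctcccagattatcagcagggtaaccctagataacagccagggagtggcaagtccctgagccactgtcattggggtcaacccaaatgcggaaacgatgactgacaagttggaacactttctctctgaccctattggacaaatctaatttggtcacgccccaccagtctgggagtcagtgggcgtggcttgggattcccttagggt
Cox8b: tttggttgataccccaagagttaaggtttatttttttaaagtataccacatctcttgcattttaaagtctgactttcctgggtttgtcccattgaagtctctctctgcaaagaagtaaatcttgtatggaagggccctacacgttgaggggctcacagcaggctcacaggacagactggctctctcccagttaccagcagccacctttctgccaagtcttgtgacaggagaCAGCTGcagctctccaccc
Cox6a1: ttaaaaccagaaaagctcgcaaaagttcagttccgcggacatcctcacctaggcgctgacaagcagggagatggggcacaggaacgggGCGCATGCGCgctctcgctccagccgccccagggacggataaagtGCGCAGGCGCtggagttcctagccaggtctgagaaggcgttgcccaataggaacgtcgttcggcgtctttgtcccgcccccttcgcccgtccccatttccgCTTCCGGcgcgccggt
In Cox6a1 the capitals are an NRF1 motif, a second match to the looser NRF1 motif and an ETS motif on the opposite strand, and in Cox8b they are an E box. No motif searched was found in these bases of Cox7a1. Windows of 250 bases before to 50 after the start were matched for 71 members, and both strands were searched. The strict NRF1 motif was in 5 of 71 (7.04%) and in 1.07% of 27025 genes, and the looser NRF1 motif, which frees 1 base and contains the strict one, was in 17 of 71 (23.9%) and 5.19%. The ETS motif CCGGAAG was in 17 (23.9%) against 9.93%, the YY1 motif AANATGGC in 17 (23.9%) against 6.96%, and the ERRA motif TCAAGGTCA in 2 (2.82%) against 0.466%. Of motifs added after the data were seen, the E box CAGCTG was in 6 (8.45%) against 18.3%, TATAAA in 8 (11.3%) against 15.7%, and a MEF2 motif in 0 against 3.7%. By complex, from I to V, the 17 YY1 matches numbered 12, 0, 0, 1 and 4. The 17 looser NRF1 matches numbered 7, 2, 1, 1 and 6. The complexes differ in size, with 36 of the 83 tested genes in complex I and 17 in complex V, so these counts are not shares. A match describes letters in a window, not binding.

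The other tissue forms of complex IV that were tested had differences above 0 and did not pass the test. Cox4i2, a form known from lung and low oxygen, read 2.32, 2.79 and 3.22 on the control arrays and 3.08, 3.40 and 3.20 on the mutant arrays, a difference of 0.45 (SE 0.24, 95% interval -0.13 to 1.03). Control 3 was its highest control, so leaving that array out raised the difference by construction, to 0.67. Without control 1 the difference was 0.22, and with array weights it was 0.28. Cox6b2, a testis form, read 0.30, -0.02 and 0.47 on the control arrays and 0.53, 0.58 and 0.41 on the mutant arrays, a difference of 0.26 (SE 0.16). Cox6b2 minus Cox6b1 differed by 0.30 (exact permutation p 0.1, the smallest possible; 0.5 after Benjamini-Hochberg adjustment over 5 pairs), and Cox4i2 minus Cox4i1 by 0.42 (exact permutation p 0.3; adjusted 0.75). Cox8c, another testis form, differed by 0.07 (SE 0.26).

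Among the ubiquitous complex IV subunits, Cox5a, which has no muscle form, had the smallest p of all members. It read 5.83, 5.78 and 5.79 on the control arrays and 5.67, 5.46 and 5.62 on the mutant arrays, a difference of -0.22 (SE 0.11). Every mutant was lower than every control. Cox7b differed by -0.11 (SE 0.10), with the groups also apart, while Cox4i1, the main form of subunit 4, read 6.22, 6.25 and 6.26 on the control arrays and 6.20, 6.36 and 6.26 on the mutant arrays and differed by 0.03 (SE 0.11). Cox5b, the zinc-binding subunit, read 5.28, 5.26 and 5.25 on the control arrays and 5.19, 5.16 and 5.19 on the mutant arrays, a difference of -0.09 (SE 0.10). Cox6b1 differed by -0.04 and Ndufa4, long counted to complex I and now to complex IV, by -0.11. The sign of Cox4i1 turned under quantile scaling (-0.07). Complex IV as a whole had a median difference of -0.04, with 11 of 18 subunits below 0.

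In complex I the median difference was -0.03, with 25 of 36 subunits below 0 and 1 of 36 separated. The 7 core subunits, which carry the flavin and the iron-sulphur clusters, had a median of -0.05 and the 29 accessory subunits -0.03. Ndufv1, the NADH-binding subunit, read 4.94, 4.74 and 4.63 on the control arrays and 4.64, 4.46 and 4.68 on the mutant arrays, a difference of -0.18 (SE 0.14). Control 1 was the highest and mutant 2 the lowest, the groups overlapped, and without control 1 the difference was -0.09. Ndufs1, the largest iron-sulphur subunit, read 3.65, 3.63 and 3.48 on the control arrays and 3.64, 3.47 and 3.51 on the mutant arrays, a difference of -0.05 (SE 0.12). Its sign turned with array weights.

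Among the accessory subunits of complex I the lowest difference was that of Ndufb5, a membrane-arm subunit. It read 4.22, 4.31 and 4.31 on the control arrays and 3.98, 4.25 and 4.14 on the mutant arrays, a difference of -0.16 (SE 0.12), and its other probe gave -0.06. Mutant 1 was the lowest array and the groups overlapped, and without it the difference was -0.09. The highest difference was that of Ndufv3, at 0.16 (SE 0.14), for which mutant 2 was highest at 6.08 and the other 5 arrays lay between 5.64 and 5.83. Without mutant 2 the difference of Ndufv3 was 0.05. Ndufa12, the 1 separated member of complex I, read 4.56 on all 3 control arrays and 4.42, 4.53 and 4.51 on the mutant arrays, a difference of -0.07 (SE 0.11). Ndufs5 and Ndufa7 differed by 0.09 and 0.10. The carrier protein Ndufab1, which also serves mitochondrial fatty acid synthesis, differed by -0.12 (SE 0.14), with mutants 1 and 3 below the other 4 arrays.

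In complex II, where Sdha and Sdhb form the catalytic part that oxidises succinate, the median difference was -0.06 with 3 of 4 below 0. Its mean level, each gene relative to its own mean, was 0.03, 0.05 and 0.03 for the controls and -0.03, 0.01 and -0.09 for the mutants, without overlap. Sdhb, the iron-sulphur subunit, read 5.45, 5.44 and 5.48 on the control arrays and 5.32, 5.20 and 5.27 on the mutant arrays. The groups did not overlap, and the difference was -0.20 (SE 0.11). Its 2 probes gave -0.26 and -0.20. Sdha, the flavoprotein, read 3.93, 3.89 and 3.95 on the control arrays and 3.92, 3.97 and 3.74 on the mutant arrays, so only mutant 3 was low, and it differed by -0.05 (SE 0.12). The membrane anchors Sdhc and Sdhd differed by -0.07 and 0.02, and Sdhd turned to -0.03 under quantile scaling.

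Complex III had a median difference of -0.09, with 7 of 8 below 0 and 0 separated. Its mean level was 0.11, 0.02 and -0.0012 for the controls and -0.09, -0.03 and -0.02 for the mutants, without overlap. Uqcrc1, a core subunit, read 3.05, 2.54 and 2.54 on the control arrays and 2.58, 2.42 and 2.45 on the mutant arrays, a difference of -0.23 (SE 0.17). Control 1 alone was high, and without it the difference was -0.06. Uqcrc2, the second core subunit, read 4.35, 4.29 and 4.14 on the control arrays and 4.15, 4.15 and 4.10 on the mutant arrays, and differed by -0.12 (SE 0.11). The small subunit Uqcrb was covered by 3 probes, whose differences ran from -0.09 to 0.11. The difference was -0.09 for the Rieske iron-sulphur protein Uqcrfs1 and 0.002 for the hinge protein Uqcrh, which turned to -0.09 under quantile scaling.

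In complex V 6 of 17 members (35.3%) were separated, all lower in mutants, beside 3.75% of all features. They were 6 of the 11 separated subunits. Of the 17 members 14 were below 0, against 40% of all features, with a median difference of -0.06. The catalytic beta subunit Atp5b read 7.06, 7.01 and 6.97 on the control arrays and 6.96, 6.92 and 6.92 on the mutant arrays, a difference of -0.08 (SE 0.10). The alpha subunit Atp5a1 read 5.91, 5.89 and 5.85 on the control arrays and 5.80, 5.82 and 5.77 on the mutant arrays, a difference of -0.09 (SE 0.10). In both genes the groups lay close together without overlap, and the differences were below their standard errors. The c ring, which turns as protons pass, is encoded by 3 genes for the same mature protein. Atp5g3 read 6.59, 6.58 and 6.63 on the control arrays and 6.46, 6.49 and 6.47 on the mutant arrays, a difference of -0.13 (SE 0.10), and every mutant was below every control. Atp5g1 and Atp5g2 differed by 0.05 (SE 0.12) and 0.01 (SE 0.14) with overlapping groups, and under quantile scaling by -0.03 and -0.06. Whether the 3 genes differ from each other in their response was not tested. All 4 subunits of the peripheral stalk, which holds the head still, and all 5 of the head and central stalk were below 0. Atp5o, in the stalk, read 4.27, 4.11 and 4.12 on the control arrays and 3.77, 4.15 and 4.05 on the mutant arrays, a difference of -0.18 (SE 0.14) with mutant 1 lowest, and without mutant 1 the difference was -0.07. Of the other membrane subunits 4 of 5 were below 0, and Atp5mpl was separated at -0.10 (SE 0.11).

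**Figure D3:**
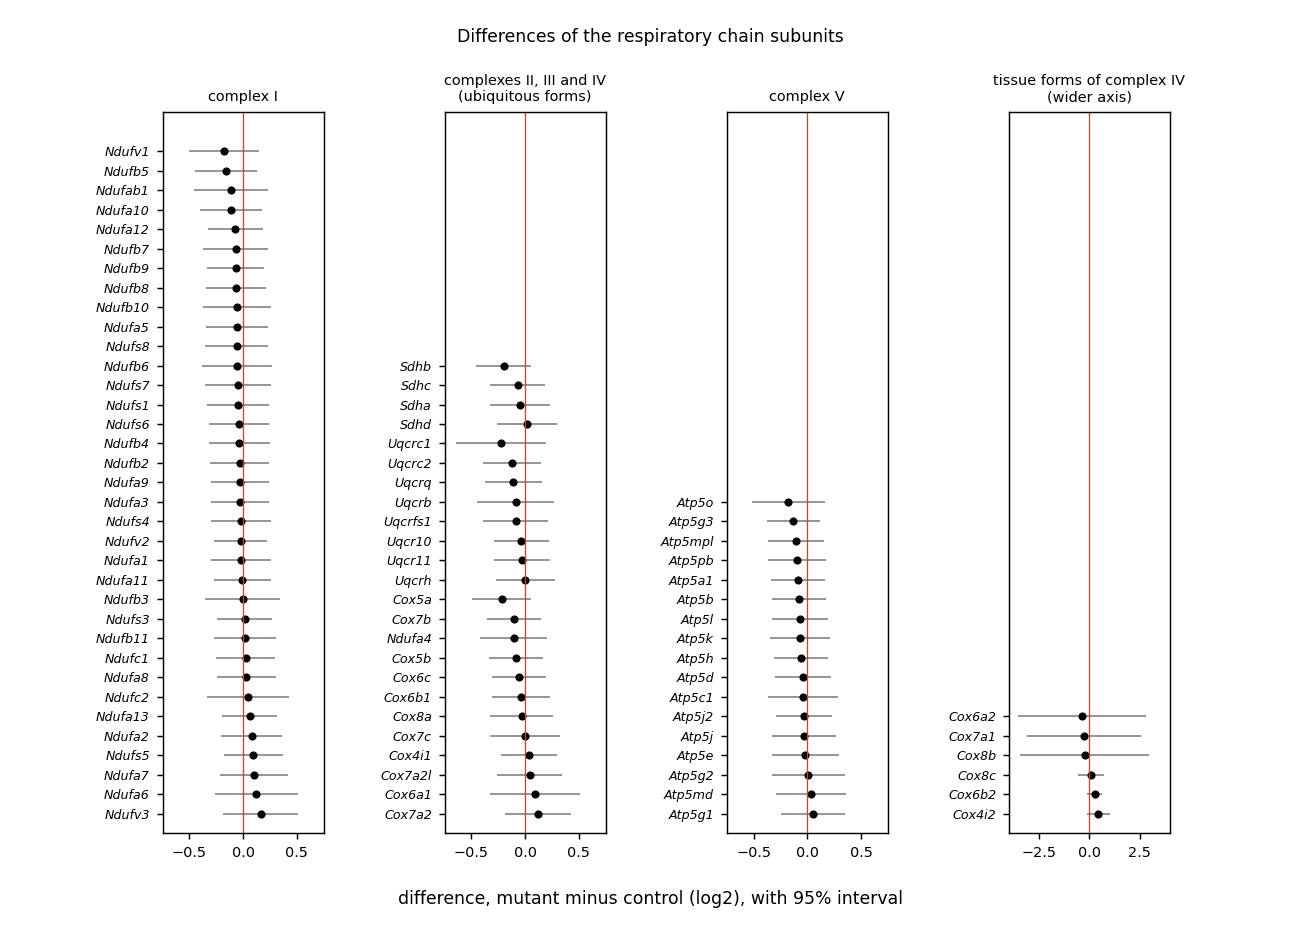
Difference between mutants and controls (log2) of 82 tested members with its 95% interval from the limma fit by complex; genes are in order of their difference within each complex, and the last panel has a wider axis. Every interval crosses 0, and the muscle forms have by far the widest, -3.55 to 2.83 for Cox6a2.

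Genes around the respiratory chain were counted from lists of textbook members. Of 18 citric acid cycle and pyruvate dehydrogenase genes, 16 had a difference below 0 (40% of all features), the median was -0.15 and 4 were separated, all lower (3.75% of all features). The number below 0 was 10 of 18 with the slide row as a block and without control 1 and mutant 2. Fh1, fumarate hydratase, read 3.40, 3.27 and 3.29 on the control arrays and 3.13, 3.16 and 3.03 on the mutant arrays, a difference of -0.22 (SE 0.11). Over 22 settings the median of this list ran from -0.19 to -0.01. The electron carriers and feeders had 5 of 7 below 0 (median -0.08), and cytochrome c itself, Cycs, differed by -0.16 with separated groups. Of 40 assembly factors 13 were below 0 (median 0.07), a sign that turned under some settings, with medians from -0.06 to 0.11. Mitochondrial ribosomal proteins had 19 of 34 below 0, and regulators of mitochondrial biogenesis and mitochondrial DNA maintenance 10 of 19. Genes encoded by mitochondrial DNA had no matched probe. Probes were matched only through RefSeq transcript accessions, so this does not show that the array lacks probes for them.

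Glycolysis makes ATP without the chain. Its list of 19 genes also held the glucose transporter Slc2a1 and the kinase Pdk1, which are not glycolytic enzymes. Of the 19, 18 had a difference above 0 (median 0.28). In 8, Pdk1 among them, the groups were separated, all higher (5.19% of all features). An unadjusted limma p below 0.05 was seen in 4, beside 1.55% of all features higher at that p, while 0 passed adjustment. The median of the list ran from 0.14 to 0.36 over 22 settings. Aldoc, aldolase C, read 4.85, 5.71 and 5.59 on the control arrays and 5.85, 6.20 and 6.05 on the mutant arrays, a difference of 0.65 (SE 0.25). Hk2, hexokinase 2, and Pfkp, platelet phosphofructokinase, differed by 0.56 and 0.42. Of 12 carriers, porins, import and uncoupling proteins, 7 were below 0 (40% of all features), with a median of -0.015. In 2 of them the groups were separated, both lower (16.7%, beside 3.75% of all features). These were Ucp2, which differed by -1.19 (SE 0.34), and its chromosomal neighbour Ucp3, by -1.21 (SE 0.38). Both had a limma adjusted p of 0.987. Ucp2 read 0.15, 0.02 and -0.50 on the control arrays and -0.95, -2.03 and -0.90 on the mutant arrays. Ucp3 read 0.39, 0.26 and -0.27 on the control arrays and -0.70, -1.91 and -0.65 on the mutant arrays. The 2 rows ran in parallel, and whether their probes read a shared signal was not tested. No test of one list against another was made.

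The levels of cell type markers are given beside these results, and 0 markers on these lists passed an adjusted limma p of 0.05. The chondrocyte score was -0.35, -0.05 and 0.003 for the controls and -0.01, 0.41 and -0.01 for the mutants. All 15 markers were tested, and 14 had a difference above 0, with a median of 0.29, near the 0.28 of the glycolysis list. The macrophage score was 0.52, 0.75 and 0.29 in controls and -0.03, -1.53 and 0.01 in mutants over 12 tested of 14 markers, and the osteoclast score 0.48, 0.81 and 0.49 against -0.15, -1.64 and 0.01 over 12. In both lists the groups did not overlap, and the median differences were -1.02 and -1.22. Of the 12 markers 7 were separated in each list, all lower in mutants (58.3%, beside 3.75% of all features). For neutrophils, erythroid cells and B lymphocytes the groups overlapped, since control 3 lay with the mutants. The neutrophil score was 2.01, 1.15 and -0.80 for the controls and -1.35, -0.75 and -0.26 for the mutants. The erythroid score was 1.69, 0.83 and -1.04 against -0.86, -0.48 and -0.15, and the B lymphocyte score 1.30, 1.30 and -0.78 against -0.94, -0.73 and -0.17. Adipocyte markers, with 10 of 12 tested, had a median difference of -0.32, osteoblast markers -0.20 and endothelial markers -0.64. The adipocyte score was 0.53, 0.003 and -0.02 for the controls and 0.35, -1.58 and 0.73 for the mutants. The osteoblast score was -0.15, 0.46 and 0.36 against 0.01, -0.97 and 0.29, and the endothelial score 0.41, 0.45 and 0.09 against 0.03, -1.07 and 0.10. In all 3 the groups overlapped and mutant 2 was the lowest array. The part of these cell types in the differences of the respiratory subunits, the citric acid cycle, glycolysis and the uncoupling proteins was not tested.

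**Figure D4:**
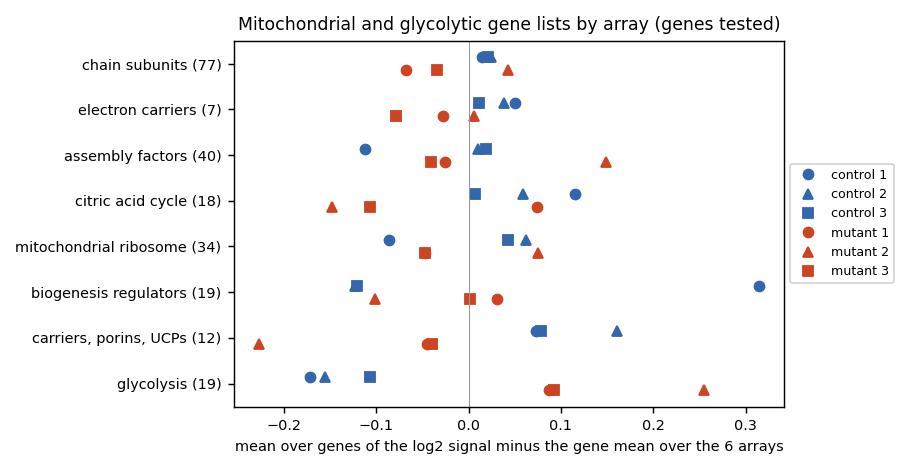
Mean over genes of the log2 signal minus the gene's mean over the 6 arrays (horizontal axis) for 8 gene lists, with the number of genes tested in brackets; blue points are controls and red points mutants. Respiratory subunits stay between -0.07 and 0.04, and glycolysis runs from -0.17 to -0.11 in controls and from 0.09 to 0.25 in mutants.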

How the data were processed

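Total RNA of tibial cartilage from 3 control and 3 mutant mice was measured on 1-colour Agilent arrays. Per the labels' protocols the dye was Cy3, while the label field names Cy5. The deposited spot values are intensity readings that the submitters' processing notes credit to Agilent Feature Extraction, version 10.7.1.1: a background-subtracted processed signal, and median spot and background brightness. A second table deposited by the authors holds a ratio of each spot to the 75th percentile of each array, as read from its values: the 75th percentile of each column was 1, with column medians of 0.094 to 0.104. How the authors made it is not given in the sources used here.

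From the deposited processed signal, log2 values were taken and each array's 75th percentile was subtracted. Control spots and outlier spots were left out, and a probe had to be well above background on at least 3 of 6 arrays. Probe accessions were looked up in RefSeq's table of genes for GRCm38.p6, which named 27656 of 55681 probes. That assembly differs from the array design's build, so coordinates are given only for promoter sequences from the same RefSeq assembly. Probe sequences were not used here, and signal from paralogs or pseudogenes was not checked. Groups were fitted with limma 3.58.1 in R 4.3.3 over 25494 features (two-sided, Benjamini-Hochberg adjustment, 4 residual and 2.42 prior degrees of freedom). The fit was also run on simulated data, with the same spread for every feature and planted differences larger than that of any member. The real features differ in spread, so that run does not show how well the fit finds differences of the members' size. The number of arrays limits the precision.

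The genes named always are the tissue forms of complex IV and their partners, subunit c, and the catalytic or core subunits. In each complex they also include the 2 smallest p-values and the highest and lowest difference. For the other lists the plan was the 3 smallest p-values, and all 3 are named only for glycolysis. The values of 1 core subunit are counted in the totals and are not reported here. Any other gene was picked with its values in view. The members and lists were chosen with earlier results of these data known. Alternatives were background correction, scaling, filters, array weights, a variance trend, blocks for replicate number, sex or slide row, the value table, the mean over probes, and leaving out arrays. Normexp (offset 50) used the median spot signal. Per-sample value columns left unused numbered 0.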

Additional observations from a re-analysis of the deposited data

How the results depend on the processing

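Of the results recomputed, the differences of Cox6a2, Cox7a1 and Cox8b depended most on the arrays and settings used. They were 1.71, 1.45 and 1.78 with array weights, 1.01, 0.92 and 1.08 with the slide row as a block or within the first row alone, 0.49, 0.40 and 0.62 on the 4 arrays with more Ddx3y than Xist signal, and 1.99, 1.80 and 2.13 without control 1 and mutant 2. Leaving out single arrays moved them from -1.05 to 0.90, from -0.87 to 0.80 and from -0.90 to 1.05. Minus their partners they were 1.82, 1.46 and 1.91 with array weights and 2.08, 1.80 and 2.25 without control 1 and mutant 2, and ran from -1.21 to 0.98, from -1.04 to 0.72 and from -0.91 to 1.15 when single arrays were left out. The cause was not tested.

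Members at an unadjusted limma p below 0.05 numbered 3 with normexp and quantile scaling (Cox5a, Ndufb5 and Sdhb), where 3.86% of all features did so. With array weights they numbered 6, where 15.6% of all features did so. No count of members is given without control 1 and mutant 2, since those arrays were the highest and lowest for the 3 muscle forms. Leaving out single arrays gave 0 to 1 members at that p, and the 1 was Cox4i2 without control 3, its highest control. In that fit 4.42% of all features had such a p. Features at that p numbered 1364 with no filter on dim probes, 3987 with array weights (4 past the adjusted threshold), 478 with the slide row as a block, 1902 without control 1 and mutant 2, 1334 on the arrays with more Ddx3y signal and 506 to 1149 without single arrays. The median of all members was -0.10 with quantile scaling and -0.092 with normexp and quantile scaling. In the same 2 settings it was -0.088 and -0.083 for complex I, -0.14 and -0.14 for complex III, and -0.14 and -0.11 for complex V. Complex II had -0.013 on the arrays with more Ddx3y signal. Without single arrays the medians ran from -0.069 to -0.024 for all members, from -0.069 to -0.0052 for complex I, from -0.098 to -0.015 for complex II, from -0.096 to -0.056 for complex III, from -0.046 to 0.0023 for complex IV and from -0.081 to -0.033 for complex V.

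Small differences turned sign. With array weights these were Atp5g2 -0.15, Cox6a1 -0.11, Sdhd -0.080, Uqcrh -0.065, Atp5g1 -0.064, Cox4i1 -0.031, Cox7a2 -0.013, Ndufv3 -0.0018 and Ndufs1 0.0056. On the arrays with more Ddx3y signal they were Cox6a1 -0.080, Atp5g2 -0.068, Atp5g1 -0.0084, Uqcrh -0.0023, Sdha 0.024 and Uqcrfs1 0.032. With the slide row as a block, or in its first row, they were Uqcrh -0.11, Atp5g2 -0.10, Atp5g1 -0.077, Ndufv3 -0.046, Cox4i1 -0.043, Sdhd -0.034 and Ndufs1 0.052. Without control 1 and mutant 2 they were Atp5g2 -0.16, Cox6a1 -0.094, Atp5g1 -0.059, Sdhd -0.058, Uqcrh -0.046, Cox4i1 -0.023, Cox7a2 -0.0043 and Ndufs1 0.021. With quantile scaling they were Uqcrh -0.095, Cox4i1 -0.066, Atp5g2 -0.063, Atp5g1 -0.033 and Sdhd -0.031, and with normexp added Sdhd -0.066, Uqcrh -0.062, Cox4i1 -0.039, Atp5g2 -0.038 and Atp5g1 -0.034. With the value table they were Uqcrh -0.0073 and Atp5g2 -0.0012, and with the mean over probes Atp5g2 -0.011, Uqcrh -0.0087 and Cox8a 0.028. Without single arrays the ranges were Cox4i1 from -0.011 to 0.071, Cox6a1 from -0.079 to 0.22, Cox8a from -0.11 to 0.011, Cox8c from -0.15 to 0.20, Atp5g1 from -0.0077 to 0.11, Atp5g2 from -0.089 to 0.062, Sdha from -0.094 to 0.019, Sdhd from -0.036 to 0.061 and Uqcrh from -0.049 to 0.059.

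The labels do not say whether same-numbered controls and mutants were related or handled together. The correlations of their deviations were 0.204, 0.059 and -0.164, which cannot settle it. With a replicate block 731 features had an unadjusted p below 0.05, 0 members did, and the median of all members was -0.04. Of 840 recomputed differences and medians, 114 had the other sign than reported: 91 of single genes, 21 of the pairs and 2 medians, both of complex IV. Each group rests on 3 arrays, slide row and genotype are partly confounded, and mutants 2 and 3 have no control in their row.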

Other observations

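Ndufa4l2, a relative of the complex IV subunit Ndufa4 that is known to respond to low oxygen, was outside the member rule and was singled out after its values were seen. It read 5.49, 6.00 and 6.06 on the control arrays and 6.25, 6.77 and 6.37 on the mutant arrays, so the groups did not overlap. The difference was 0.61 (SE 0.22), with an unadjusted limma p of 0.0281 and an adjusted p of 0.987. Ndufa4 itself differed by -0.11 with overlapping groups.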
